A study of Mus musculus with 9 samples.

Results

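Cells labelled as the mouse cardiomyocyte line HL-1 were given doxorubicin, with or without interferon gamma, and the question was what interferon gamma adds to the response to the drug. The comparison uses 6 of the 9 arrays of the study, chosen by their treatment label: 3 arrays of cells given 0.3 µM doxorubicin (DOX) and 3 of cells given 0.3 µM doxorubicin and 20 ng/ml interferon gamma (DOX_IFNg). The other 3 arrays hold cells given phosphate-buffered saline (Con); they lend their spread to the test and their values are given beside the others. All groups were grown alike in DMEM with 10% fetal bovine serum. HL-1 is an immortalized line from mouse atrial cardiomyocytes. How long the cells were treated is not given in the sources used here. Replicates are numbered 1 to 3 in the labels, which do not say whether these were separate cultures, so p-values measure spread between arrays that may be technical. None of the 9 arrays held cells given interferon gamma without doxorubicin.

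The anthracycline doxorubicin traps topoisomerase II on DNA and so breaks it. Interferon gamma binds the receptor chains Ifngr1 and Ifngr2, which activate the Janus kinases Jak1 and Jak2, and the signal reaches gamma-activated sites (GAS) in promoters. Among the genes it induces in most cell types are the transcription factor Irf1, the guanylate-binding proteins and other large GTPases, the immunoproteasome and the class I antigen presentation genes, and the chemokines Cxcl9 and Cxcl10. Irf1 and related factors bind the interferon-stimulated response element (ISRE), and the NF-kB factors, which inflammatory signals activate, bind kappaB sites.

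The promoters of 4 genes to which the results return are shown as the 250 bases upstream of the transcription start, 5′ to 3′ on the strand of the gene, from RefSeq on mouse build GRCm38.p6. They are those of Irf1 (chr11:53769764-53770013, plus strand), Gbp2 (chr3:142620413-142620662, plus strand), Nfkbia (chr12:55492648-55492897, minus strand) and Cxcl1 (chr5:90890995-90891244, plus strand). Irf1 and Gbp2 are shown as interferon gamma targets, Nfkbia and Cxcl1 because their levels differed more between the groups than those of most genes. Capitals mark the GAS motif in Irf1, the ISRE motif in Gbp2, read on the opposite strand, and kappaB motifs in Nfkbia, on the opposite strand, and Cxcl1. The promoter of Irf1 also held a kappaB motif, which is not capitalized.
Irf1: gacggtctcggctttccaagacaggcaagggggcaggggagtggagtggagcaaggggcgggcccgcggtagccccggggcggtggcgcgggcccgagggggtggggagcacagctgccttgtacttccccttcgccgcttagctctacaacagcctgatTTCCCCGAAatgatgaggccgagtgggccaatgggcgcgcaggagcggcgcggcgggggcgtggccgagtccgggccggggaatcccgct
Gbp2: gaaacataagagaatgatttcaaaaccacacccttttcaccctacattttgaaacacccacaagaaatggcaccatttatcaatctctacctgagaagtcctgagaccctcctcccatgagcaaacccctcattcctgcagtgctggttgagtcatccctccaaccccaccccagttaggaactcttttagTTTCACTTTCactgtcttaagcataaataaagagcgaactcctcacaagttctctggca
Nfkbia: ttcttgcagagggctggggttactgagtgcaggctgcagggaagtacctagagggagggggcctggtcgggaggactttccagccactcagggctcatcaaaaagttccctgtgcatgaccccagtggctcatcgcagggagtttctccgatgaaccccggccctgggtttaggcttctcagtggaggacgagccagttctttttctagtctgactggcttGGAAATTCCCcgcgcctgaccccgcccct
Cxcl1: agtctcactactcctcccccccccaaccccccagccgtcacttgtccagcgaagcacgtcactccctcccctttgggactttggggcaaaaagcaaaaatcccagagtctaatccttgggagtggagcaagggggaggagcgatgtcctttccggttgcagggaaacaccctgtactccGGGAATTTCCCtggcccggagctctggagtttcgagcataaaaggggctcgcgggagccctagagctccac

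The GAS motif, TTCNNNGAA, begins 90 bases before the start of Irf1, and the ISRE motif, searched as GAAANNGAAA, begins 59 bases before that of Gbp2. A kappaB motif begins 29 bases before the start of Nfkbia, and in Cxcl1 overlapping matches begin 71 and 70 bases before it. On either strand, GAS motifs were found in 7.02% of 32851 promoters of this length, ISRE motifs in 2.98% and kappaB motifs in 7.25%. Of the 6 interferon-inducible GTPase genes with a promoter in the table, 6 held an ISRE motif. This count is by gene, over all promoters of the gene, and the shares above are by promoter. A match describes the letters of these windows and says nothing of binding in these cells.

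Levels are log2 values, so a difference of 1 is 2-fold. Genes are termed called where limma gave an adjusted p under 0.05, with Benjamini-Hochberg adjustment over all 30050 genes tested. Olfactory, vomeronasal and taste receptor genes, most of which muscle cells are not known for, served to set a brightness limit. It was 4.69, the 95th percentile of the mean levels of 1752 such genes, and 12148 genes lay above it. The labelled cell type was checked against markers. Of 14 cardiomyocyte markers, 3 lay above the limit: Tnnt2, cardiac troponin T, at a mean of 7.05 over the 9 arrays, the gap junction gene Gja5 at 6.40 and the transcription factor Nkx2-5 at 5.24. Myh6, the main adult heart myosin, at 4.32, Nppa, the atrial natriuretic peptide, at 4.04, and Myl7, an atrial myosin light chain, at 4.20 lay below it. Of 14 skeletal muscle markers, 8 lay above it, among them the transcription factor Myod1 at 6.38 and skeletal actin Acta1 at 7.87, as did 6 of 11 fibroblast, 4 of 7 smooth muscle, 2 of 9 endothelial and 1 of 14 immune markers. The immune marker above it was Cd14, at 6.01; the pan-leukocyte gene Ptprc lay at 4.06. In RNA from whole cultures, fewer cells of a type and less RNA per cell cannot be told apart.

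Over all genes, the DOX and DOX_IFNg arrays were about as alike as replicates: Pearson correlations across genes lay between 0.9942 and 0.9969 between the groups and between 0.9946 and 0.9973 within them. DOX_IFNg replicate 1 stood apart. On the first principal component of the 6 arrays (36.4% of the variance) it scored 27.2, against -15.3 to 4.30 for the other 5. Values without it are given beside a number of the results. Any 2 of the 6 arrays DOX replicates 1 to 3, DOX_IFNg replicates 1 to 2 and Con replicate 1 had 82 to 186 identical values in common, against 1 to 17 for other pairs; with this grouping as a block, 0 genes were called between DOX_IFNg and DOX.

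No gene was called between cells given doxorubicin with interferon gamma and cells given doxorubicin without it. By limma, 0 of 30050 genes (0%) were called higher and 0 (0%) lower in DOX_IFNg than in DOX, and the lowest adjusted p was 0.506. At an unadjusted p under 0.05, 597 genes (1.99%) lay higher and 906 (3.01%) lower. All 30050 differences were smaller than 2-fold, ranging from -0.92 to 0.78 with an SD of 0.13, and 153 were of at least 0.5 in size. The same arrays and test called 2423 genes (8.06%) higher and 2264 (7.53%) lower in DOX than in Con, where 701 genes differed by at least 2-fold. DOX minus Con shares the DOX arrays with DOX_IFNg minus DOX, so its values are only set beside those of the members.

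**Figure D1:**
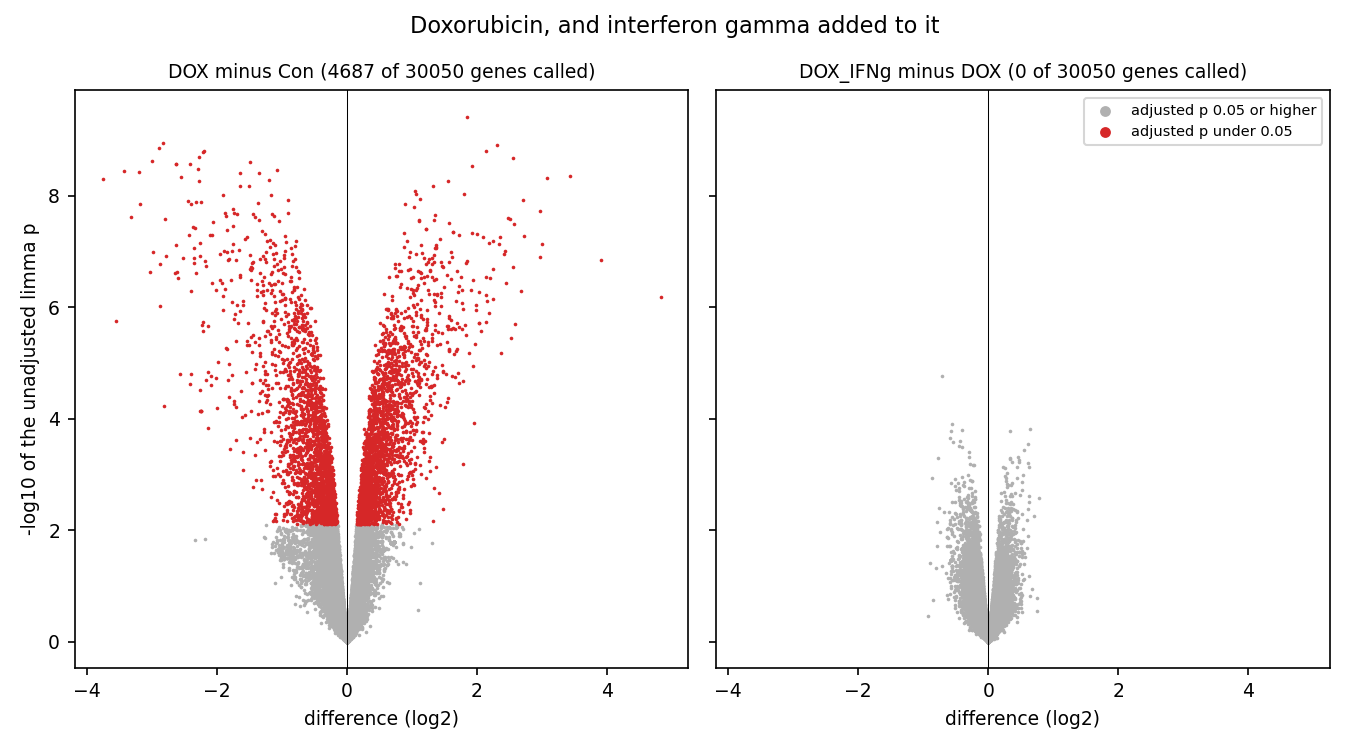
Each point is 1 of 30050 genes; the x axis is the difference in log2 level and the y axis is -log10 of the unadjusted limma p, with DOX minus Con on the left and DOX_IFNg minus DOX on the right, on the same axes, and red for an adjusted p under 0.05. The left panel has 4687 red points and differences from -3.76 to 4.82, and the right panel has 0 red points and differences from -0.92 to 0.78.

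The precision of the arrays sets what such a result can say. The 95% interval of a difference was ±0.19 for the median gene and ±0.49 for the gene at the 95th percentile, and for 29729 genes (98.9%) the whole interval lay within a 2-fold change either way. A gene changing on its own would have needed an unadjusted p of 1.66e-06, which for the median gene is a difference of 0.98. The intervals are on the scale of the deposited values, on which differences of dim genes are compressed.

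The 9 interferon lists, from the receptor to induced enzymes, held 128 measured genes, of which 29 lay above the brightness limit. By limma 0 of the 128 were called. At an unadjusted p under 0.05, 8 lay higher (6.25%) and 2 lower (1.56%), beside 1.99% and 3.01% of all genes. Their median difference was 0.0099, beside -0.0084 over all genes. Of the 17902 genes at or below the brightness limit, 366 lay higher and 346 lower at this p, and their median difference was -0.00082. For 11 members all DOX_IFNg arrays lay above all DOX arrays, and for 5 all lay below; over all genes these shares were 4.56% and 6.69%. The highest upper end of a 95% interval was 0.76, a fold of 1.70, for the chemokine Cxcl1, and for 126 of the 128 it was below 0.5. In DOX minus Con, 13 of the 128 were called higher and 4 lower, beside 8.06% and 7.53% of all genes.

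The receptor chains and their kinases had close means in both groups, with 0 called. Ifngr1, the ligand-binding chain, lay at 4.14, 4.16 and 4.27 on the DOX arrays and at 4.15, 4.20 and 4.14 on the DOX_IFNg arrays, all below the brightness limit. Ifngr2, the signalling chain, lay above it, at 5.22, 5.22 and 5.20 and at 5.19, 5.23 and 5.21. The groups overlapped for both chains. Jak1 lay at 7.84, 7.79 and 7.72 in DOX and at 7.77, 7.89 and 7.80 in DOX_IFNg, a difference of 0.03 (SE 0.06). Jak2 lay at 5.50, 5.50 and 5.56 and at 5.70, 5.67 and 5.51, a difference of 0.11 (SE 0.08), or 0.072 without DOX_IFNg replicate 1, and its groups overlapped. Stat2, a factor of type I interferon signalling, differed by 0.02 and Stat3 by -0.06. Of the 7 measured genes of this list 5 lay above the limit, 0 reached an unadjusted p under 0.05, and the median difference was -0.0011, against 0.012 under quantile normalization.

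Feedback inhibitors, which interferon signalling induces to limit itself, lay close together as well. Socs1, the main inhibitor of the interferon gamma receptor kinases, lay at 4.25 ± 0.10 (SD, n = 3) in DOX and 4.24 ± 0.06 in DOX_IFNg, and Socs3 at 3.52 ± 0.10 and 3.52 ± 0.04. Usp18, an inhibitor of type I interferon signalling, lay at 3.93 ± 0.04 and 3.86 ± 0.12. The largest difference of the 10 genes was 0.22 (SE 0.10) for Ptpn2, a phosphatase of Janus kinases, at 5.53, 5.58 and 5.52 in DOX against 5.87, 5.85 and 5.56 in DOX_IFNg. Replicates 1 and 2 lay above the DOX arrays and replicate 3 among them. By limma 0 of the 10 reached an unadjusted p under 0.05.

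Irf1, an early interferon gamma target whose promoter with its GAS motif is printed above, lay at 3.8, 3.9 and 4.0 on the Con arrays, 3.88, 3.87 and 3.89 on the DOX arrays and 3.99, 3.97 and 4.10 on the DOX_IFNg arrays. The DOX_IFNg values lay above all DOX values but reached into the range of Con, and all 9 were below the brightness limit. The difference was 0.14 (SE 0.06, 95% interval 0.01 to 0.27) at an unadjusted p of 0.042 and an adjusted p = 0.976 by limma. Its second cluster showed no such order, with 3.40, 3.54 and 3.64 in DOX and 3.63, 3.61 and 3.53 in DOX_IFNg. Irf2, a factor that competes with Irf1 for the same sites, was the only one of the 7 measured interferon regulatory factors above the limit, at 5.88, 5.93 and 5.87 in DOX and 6.05, 6.05 and 5.95 in DOX_IFNg; the groups did not overlap, and the difference was 0.13 (adjusted p = 0.976, limma). Irf7, Irf8 and Irf9 differed by -0.05, 0.05 and -0.01.

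**Figure D2:**
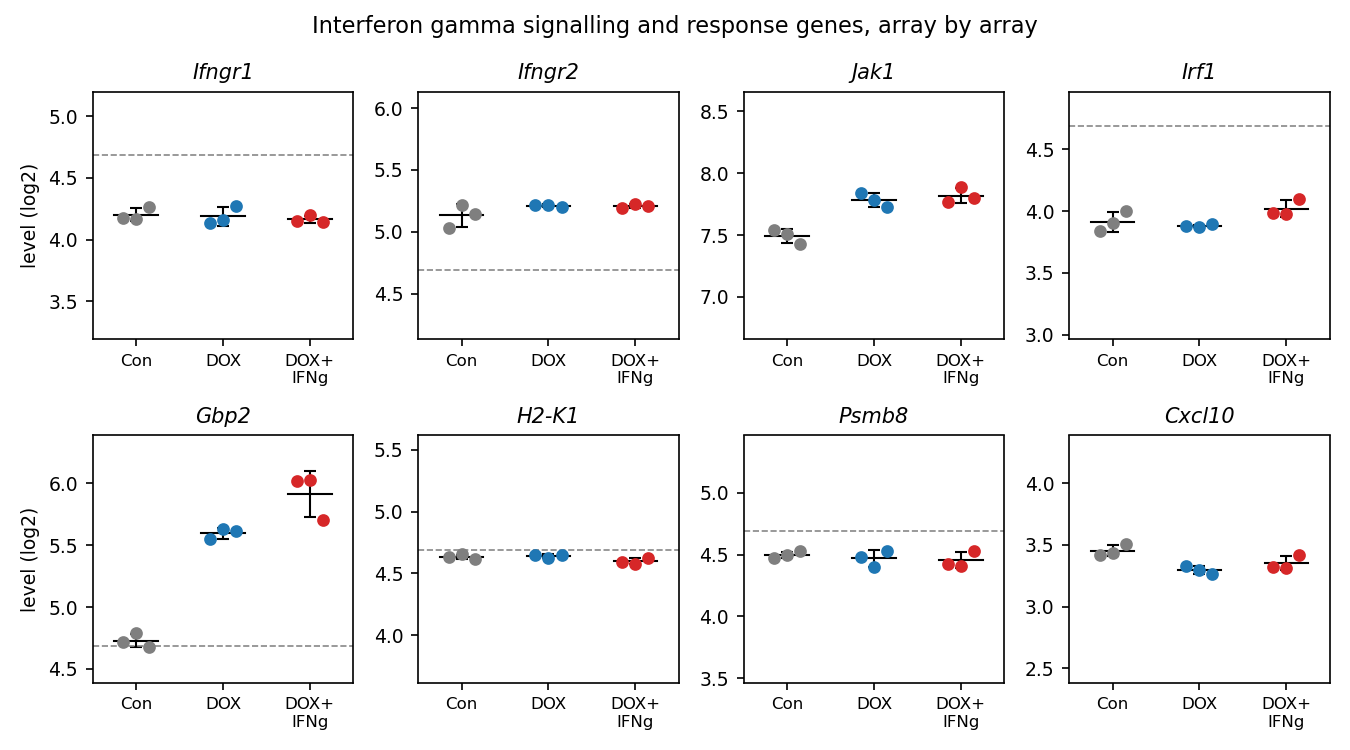
Log2 level (y axis) of 8 genes of the receptor, its kinase and known interferon gamma targets on the Con, DOX and DOX_IFNg arrays (x axis); points are arrays, bars the mean and SD of 3 arrays, and the dashed line is the brightness limit of 4.69 where it falls in the panel. Gbp2 is the panel with the largest difference in mean between DOX_IFNg and DOX. Irf1 and Cxcl10 lie below the limit on all arrays.

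Among the GTPases that interferon gamma induces against intracellular pathogens, Gbp2 lay highest and was the only one of 12 measured members above the brightness limit. It lay at 4.72, 4.79 and 4.68 in Con, 5.55, 5.63 and 5.61 in DOX and 6.02, 6.03 and 5.70 in DOX_IFNg. The 3 groups did not overlap, and DOX_IFNg replicate 3 lay close to the DOX arrays. The difference from DOX was 0.32 (SE 0.09, 95% interval 0.11 to 0.52), a fold of 1.25, at an unadjusted p of 0.007 and an adjusted p = 0.966 by limma; leaving out single arrays gave 0.26 to 0.43. DOX minus Con was 0.87 for the same gene and was called. Gbp9 lay higher by 0.16 and Gbp7 lower by 0.12, both below the limit. The other members, among them Irgm1, Irgm2, Igtp and Iigp1 of the immunity-related GTPases, differed by -0.03 to 0.10, and the median of the 12 was 0.025.

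Of 36 antiviral interferon-stimulated genes, 4 lay above the limit and 1 reached an unadjusted p under 0.05, Ifitm1, a membrane protein that restricts virus entry, with a difference of 0.14. The lowest and highest differences of the list were those of its relatives Ifitm2, at -0.24 (SE 0.15), and Ifitm3, at 0.19 (SE 0.09), both above the limit and with overlapping groups. Isg15, a ubiquitin-like modifier, differed by -0.09, the GTPase Mx1 by -0.04 and Ifit1, which binds viral RNA, by 0.10, each below the limit in both groups; without DOX_IFNg replicate 1 the value of Ifit1 was 0.025. The median over the list was 0.011.

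Of 15 measured class I presentation genes, 0 were called. H2-K1, a class I heavy chain, lay at 4.65, 4.62 and 4.65 in DOX and at 4.59, 4.58 and 4.63 in DOX_IFNg. Psmb8, a catalytic subunit of the immunoproteasome, lay at 4.48, 4.40 and 4.53 and at 4.42, 4.41 and 4.53. Tap1, a peptide transporter chain, lay at 4.80, 4.73 and 4.69 and at 4.74, 4.82 and 4.73, after 4.35, 4.34 and 4.33 in Con. For these 3 genes the groups overlapped, and the upper ends of the 95% intervals were 0.05, 0.11 and 0.14. B2m, the class I light chain, differed by -0.02 (SE 0.11). Psmb10, another immunoproteasome subunit, lay lower by 0.25 (SE 0.10; adjusted p = 0.976, limma), with 5.60, 5.62 and 5.45 in DOX and 5.10, 5.43 and 5.39 in DOX_IFNg; without DOX_IFNg replicate 1 the difference was -0.15. The median of the 15 was -0.0044, against 0.022 under quantile and 0.019 under cyclic loess normalization and 0.013 without DOX_IFNg replicate 1. Of the 8 class II genes 0 lay above the limit, and Ciita, their master activator and an interferon gamma target, differed by -0.04 (SE 0.05).

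Chemokines held the largest differences of the interferon lists, in genes other than the classical interferon gamma targets. Cxcl9, Cxcl10 and Cxcl11, the ligands of Cxcr3, differed by 0.06, 0.05 and 0.01, and Cxcl10 lay at 3.33, 3.30 and 3.27 in DOX and 3.32, 3.32 and 3.42 in DOX_IFNg. Cxcl1, a neutrophil chemokine whose promoter with its kappaB motif is printed above, lay at 3.83, 4.05 and 3.81 in Con, 3.81, 3.87 and 3.80 in DOX and 4.30, 4.25 and 4.56 in DOX_IFNg. The DOX_IFNg arrays lay above all 6 others, yet below the brightness limit. The difference from DOX was 0.54 (SE 0.10, 95% interval 0.33 to 0.76), a fold of 1.46, and was not called (unadjusted p = 0.000366, adjusted p = 0.762, limma). Ccl2, a monocyte chemokine, lay at 4.39, 4.35 and 4.23 in DOX and at 4.65, 4.65 and 4.67 in DOX_IFNg, also without overlap and below the limit. It differed by 0.33 (SE 0.06; adjusted p = 0.762, limma). Csf1, the macrophage growth factor, lay above the limit and differed by 0.17 with overlapping groups. Of the 22 genes, 19 had a difference above 0, the median was 0.032, and Cd274, the checkpoint ligand PD-L1, differed by 0.01.

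Of 11 enzymes linked to interferon gamma, 2 lay above the limit. Nos2, the inducible nitric oxide synthase, differed by -0.03 and Ido1, which breaks down tryptophan, by 0.08. Wars, the tryptophan tRNA synthetase, lay at 6.78 ± 0.22 (SD, n = 3) in DOX and 6.79 ± 0.01 in DOX_IFNg. Gch1, which makes the cofactor of Nos2, lay lower by 0.21 (SE 0.06; adjusted p = 0.976, limma), at 3.95, 3.86 and 3.85 against 3.68, 3.68 and 3.66, the latter close to 3.66, 3.65 and 3.84 in Con.

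**Figure D3:**
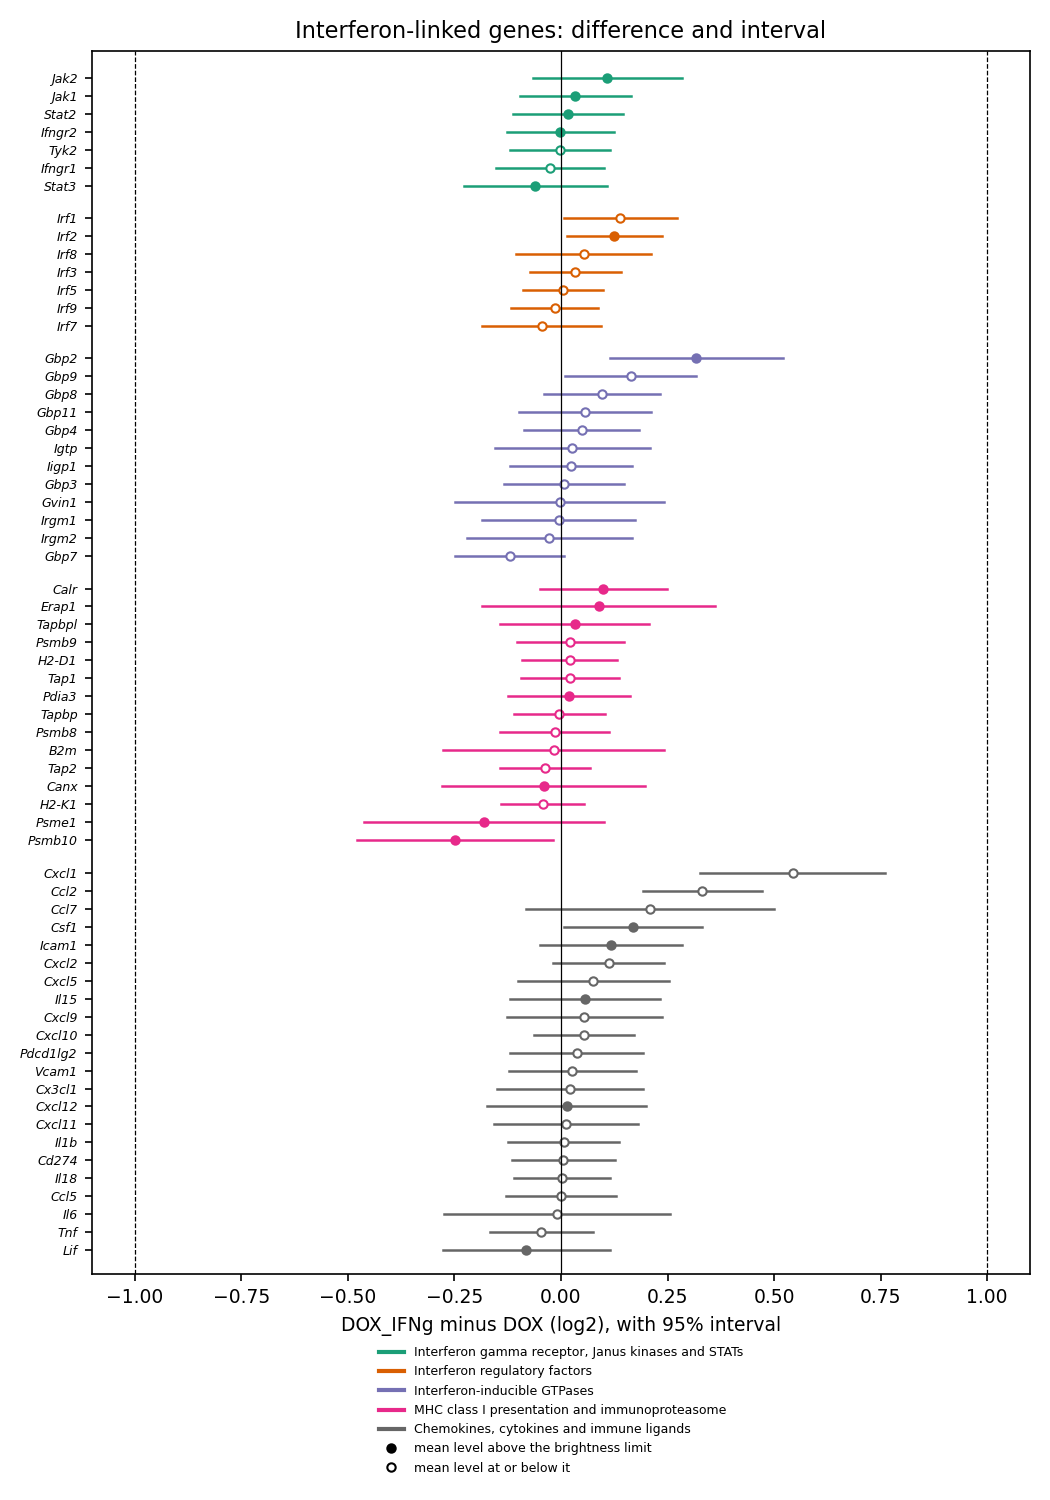
Difference in log2 level, DOX_IFNg minus DOX (x axis), with its 95% interval for each measured gene (y axis) of 5 interferon lists, coloured by list; filled points are genes with a mean level above the brightness limit and dashed lines mark 2-fold. All intervals lie inside the dashed lines, and that of Cxcl1 reaches furthest, to 0.76.

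NF-kB pathway genes were listed after Nfkbia, Relb and Tnfaip3 had been seen among the genes with the lowest p, so their count supports nothing and is a description. Of 25 measured genes, 14 lay above the limit and 0 were called. At an unadjusted p under 0.05, 8 lay higher and 0 lower, beside 1.99% and 3.01% of all genes. The median difference was 0.050, against 0.096 without DOX_IFNg replicate 1 and 0.037 without DOX_IFNg replicate 2. Nfkbia, the inhibitor IkB alpha and itself an NF-kB target, lay at 5.12, 5.28 and 5.32 in Con, 5.91, 6.02 and 5.88 in DOX and 6.25, 6.54 and 6.42 in DOX_IFNg. The 3 groups did not overlap. The difference from DOX was 0.47 (SE 0.09, 95% interval 0.27 to 0.67), a fold of 1.38, at an unadjusted p of 0.00055 and an adjusted p = 0.762 by limma, and lay between 0.40 and 0.54 when single arrays were left out. Nfkbie, a related inhibitor, lay at 4.60, 4.68 and 4.66 in DOX and 4.90, 4.97 and 4.83 in DOX_IFNg, after 4.49, 4.51 and 4.50 in Con. Tnfaip3, the inhibitor A20, lay at 5.51, 5.48 and 5.27 and at 5.70, 5.69 and 5.80, after 5.01, 4.93 and 5.08 in Con. In each of these inhibitors every DOX_IFNg array lay above every DOX array, by a mean of 0.25 in Nfkbie and 0.31 in Tnfaip3.

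Of the 25 genes, 18 had a difference above 0 and 7 below 0, the lowest at -0.09 for Bcl3, a nuclear IkB protein. In 8 of the 25 every DOX_IFNg array lay above every DOX array, and in 2 every one lay below. Over all genes these shares were 4.56% and 6.69%. Among genes of the factors themselves, Rela, the main activating subunit, differed by -0.03 (SE 0.15). Relb, a partner of the alternative pathway, lay at 5.04, 5.08 and 5.01 in DOX and 5.22, 5.22 and 5.27 in DOX_IFNg, Nfkb2 at 5.32, 5.35 and 5.30 against 5.46, 5.50 and 5.71, and Rel at 5.37, 5.51 and 5.52 against 5.85, 5.94 and 5.56. The groups did not overlap in these 3 genes, with differences of 0.19, 0.23 and 0.32 and adjusted p between 0.934 and 0.976 by limma. For Nfkb2 replicate 3 and for Rel replicates 1 and 2 of DOX_IFNg lay highest. Nfkbiz, an atypical IkB protein, differed by 0.16 and the kinase gene Ikbke by 0.12. Of the 22 list genes with a promoter in the table, 9 held a kappaB motif, among them Nfkbia, Nfkbie, Tnfaip3, Nfkb2 and Rel. So did 7 of 15 genes of the chemokine list and 7 of 16 of the tricarboxylic acid cycle. A gene was counted where any of its promoters held the motif, so these counts have another base than the 7.25% of all promoters.

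**Figure D4:**
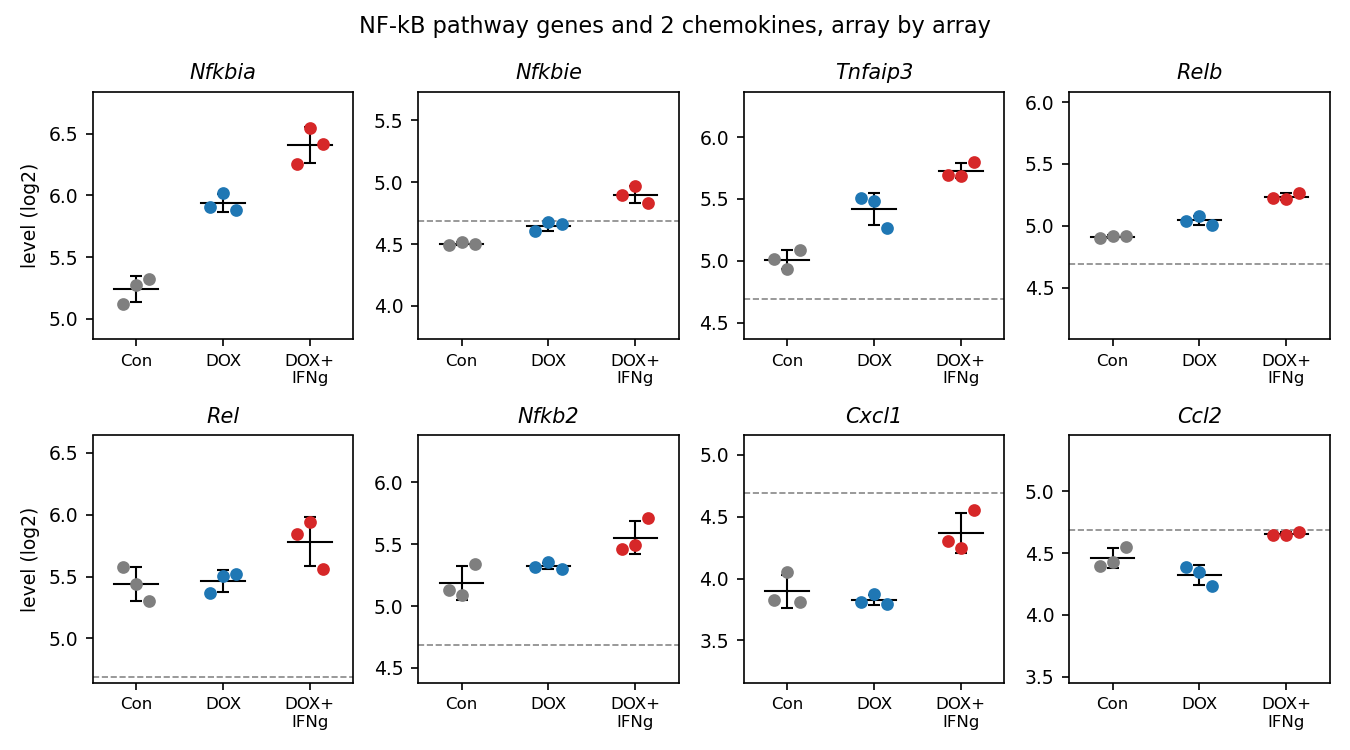
Log2 level (y axis) of 6 NF-kB pathway genes and the chemokines Cxcl1 and Ccl2 on the Con, DOX and DOX_IFNg arrays (x axis); points are arrays, bars the mean and SD of 3 arrays, and the dashed line is the brightness limit. In all 8 panels every DOX_IFNg point lies above every DOX point, which is how these panels were chosen.

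The genes with the lowest p in each direction were chosen among protein-coding genes above the limit whose DOX and DOX_IFNg arrays did not overlap. They came from 260 genes that lay higher and 695 that lay lower. Of all 12148 genes above the limit, 449 lay higher and 1060 lower without overlap. Over all genes these shares were 4.56% and 6.69%. The 10 higher were Nfkbia, Wdyhv1 (an N-terminal glutamine amidase), Relb, Defb34 (a beta-defensin), Tnfaip3, Elf1 (an ETS transcription factor), Ap3s1 (a vesicle adaptor subunit), the F-box genes Fbxo33 and Fbxo32, and Zfp654. Wdyhv1 lay at 5.43, 5.46 and 5.49 in DOX and at 5.67, 5.77 and 5.70 in DOX_IFNg. Fbxo32, the muscle ubiquitin ligase atrogin-1, lay at 6.04, 6.18 and 6.07 and at 6.27, 6.40 and 6.27, after 5.40, 5.42 and 5.41 in Con. Zfp654 had the largest difference of the 10, 0.71 (SE 0.19), but its replicate 3, at 6.12, barely cleared the highest DOX array.

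The 10 lower were C1qbp, Chtop, Zfp513, Rgp1, Foxo4, Chst14, Ncdn, Fau, Mrps26 and Ccn1. C1qbp, a mitochondrial matrix protein, lay at 6.12, 6.30 and 6.18 in DOX and 5.60, 5.62 and 5.75 in DOX_IFNg, the largest difference of these at -0.55 (SE 0.09; adjusted p = 0.762, limma). Foxo4, a forkhead factor, lay at 5.01 ± 0.04 and at 4.70 ± 0.08, without overlap, after 5.28, 5.33 and 5.44 in Con. Ccn1, a matricellular protein, lay at 11.46, 11.47 and 11.40 and at 10.95, 10.98 and 11.29. Fau, a ribosomal protein fused to a ubiquitin-like domain, lay at 14.70, 14.80 and 14.81 and at 14.01, 14.36 and 14.45. That every DOX_IFNg array lay below every DOX array was a condition for choosing these 10. In C1qbp, Chtop, Foxo4, Chst14, Ncdn, Fau and Ccn1 every DOX_IFNg array also lay below every Con array. Adjusted p of the 20 genes lay between 0.762 and 0.966 by limma.

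The lists that doxorubicin moved most had 0 called members in DOX_IFNg minus DOX. Of 24 p53 targets, 15 were called higher in DOX than in Con, beside 8.06% of all genes. Between DOX_IFNg and DOX 0 of the 24 were called, with a median of 0.011. Cdkn1a, the cell cycle inhibitor p21, lay at 6.11, 5.95 and 6.05 in DOX and 5.91, 6.07 and 6.52 in DOX_IFNg, a difference of 0.13 that was 0.26 without DOX_IFNg replicate 1 and -0.046 without DOX_IFNg replicate 3. Mdm2, the ubiquitin ligase of p53, differed by 0.11 (SE 0.09), and Gadd45a, a DNA damage response gene, lay higher by 0.18 without overlap (SE 0.06; adjusted p = 0.976, limma). Bbc3, the cell death gene PUMA, lay lower by 0.13 without overlap (SE 0.05; adjusted p = 0.976, limma), and the lowest difference was -0.25 (SE 0.21) for Ddit4, an inhibitor of mTOR signalling, with overlapping groups. Of 24 replication and mitosis genes, 21 were called lower in DOX than in Con, beside 7.53% of all genes. In DOX_IFNg minus DOX, 0 of the 24 were called or reached an unadjusted p under 0.05. The median there was -0.024, or 0.011 without DOX_IFNg replicate 1. In 27 apoptosis and 12 pyroptosis and necroptosis genes, 0 reached an unadjusted p under 0.05.

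Nqo1, a quinone reductase that acts on anthracyclines, had the widest difference among the antioxidant genes. It lay at 5.02, 4.84 and 5.15 in Con, 6.89, 6.53 and 6.32 in DOX and 5.85, 5.89 and 6.21 in DOX_IFNg. The groups did not overlap, though DOX replicate 3 and DOX_IFNg replicate 3 lay close. Nqo1 was called higher in DOX than in Con, by 1.58, and differed by -0.60 (SE 0.16; adjusted p = 0.934, limma) between DOX_IFNg and DOX, from -0.73 to -0.44 when single arrays were left out. Gpx4, which reduces lipid peroxides, and Akr1a1, an aldehyde reductase, lay lower by 0.26 and 0.28, each at an adjusted p = 0.976 by limma. Of the 20 measured antioxidant and anthracycline genes, 10 had a difference above 0 and 10 below. The median was -0.0011 and the highest difference 0.37. Top2b, the topoisomerase that doxorubicin traps in heart cells, differed by 0.23 (SE 0.28), and by 0.020 without DOX_IFNg replicate 1 and 0.47 without DOX_IFNg replicate 3.

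AMPK senses low energy and p38 is a stress kinase. Prkaa2 and Prkaa1, the catalytic subunits of AMPK, lay at 5.12 ± 0.13 (SD, n = 3) and 7.36 ± 0.11 in DOX and at 5.25 ± 0.15 and 7.62 ± 0.28 in DOX_IFNg. Without DOX_IFNg replicate 1 the difference of Prkaa2 was 0.054, and without DOX replicate 3 it was 0.21. Mapk14, p38 alpha, lay at 5.95 ± 0.04 in DOX and 5.84 ± 0.05 in DOX_IFNg, without overlap and with a difference of -0.11 (SE 0.05; adjusted p = 0.976, limma). Acaca, the AMPK target in fatty acid synthesis, differed by -0.09 (SE 0.09), after a called fall of 1.44 in DOX minus Con, and Acacb, its muscle form, by -0.02 (SE 0.06). Dusp1, a phosphatase of p38, lay lower by 0.23 (SE 0.08; adjusted p = 0.976, limma). Over the 22 genes the median was -0.035, against -0.023 without DOX_IFNg replicate 1 and -0.098 over genes above the brightness limit. These are transcript levels, and phosphorylation of either kinase was not measured.

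Medians of 3 metabolic lists, fatty acid oxidation, glycolysis and the tricarboxylic acid cycle, lay below 0, and that of mitochondrial biogenesis and fusion was 0.0035 over 10 genes, of which 0 reached an unadjusted p under 0.05. Over all genes the share at this p and lower was 3.01%, and over genes above the brightness limit 4.61%. Of 24 genes of fatty acid uptake and oxidation, 16 of them above the limit, 5 (20.8%) reached it, all lower and 0 called: Mlycd, which removes malonyl-CoA, by 0.21, Acadvl, a very-long-chain acyl-CoA dehydrogenase, by 0.21, the carnitine carrier Slc25a20 by 0.20, the thiolase Acaa2 by 0.17 and Cpt1a, the entry step of mitochondrial oxidation, by 0.15. Cpt1a lay at 6.46, 6.45 and 6.46 in DOX and 6.23, 6.32 and 6.37 in DOX_IFNg, without overlap. Cpt1b, the muscle form, differed by 0.05, and Ppargc1a, a coactivator of mitochondrial biogenesis, by 0.05 with an SE of 0.12; the latter was -0.072 without DOX_IFNg replicate 1 and 0.14 without DOX replicate 3. The median of the fatty acid list was -0.045, against -0.026 without DOX_IFNg replicate 1 and -0.096 without DOX replicate 3. Glycolysis had a median of -0.073 over 18 genes and the tricarboxylic acid cycle one of -0.076 over 18, which were -0.033 and -0.061 without DOX_IFNg replicate 1. In these lists Eno3, the muscle enolase, lay lower by 0.21, Ldhb, a lactate dehydrogenase chain, by 0.26 and Sdhb, a succinate dehydrogenase subunit, by 0.13, each at an unadjusted p under 0.05 and an adjusted p = 0.976 by limma. Respiratory chain and ATP synthase subunits, listed after values were seen, had 8 of 76 (10.5%; 55 of the 76 lay above the limit) at an unadjusted p under 0.05, all lower, with a median of -0.089 and -0.057 without the array. For 38 cytosolic ribosomal proteins, likewise listed later, the median was -0.088 and -0.043.

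The differences also varied with the brightness of the gene. For the 1371 genes with a mean level above 10, the median difference was -0.091 and 74.7% lay below 0. Without DOX_IFNg replicate 1 the median was -0.0035 and 52.4% lay below 0. In the brightest genes, over 13, the median deviation from the DOX mean was -0.29 on replicate 1, 0.013 on replicate 2 and 0.0066 on replicate 3. As medians of deviations from the DOX mean, DOX_IFNg replicates 1 to 3 gave -0.079, -0.084 and -0.050 for the tricarboxylic acid cycle. They gave -0.11, -0.10 and -0.025 for the respiratory chain list and -0.18, -0.090 and -0.014 for ribosomal proteins. For glycolysis the values were -0.14, -0.052 and -0.030, and for fatty acid oxidation -0.13, -0.074 and 0.022. The part of replicate 1 in the metabolic and ribosomal medians beyond the values given was not tested.

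**Figure D5:**
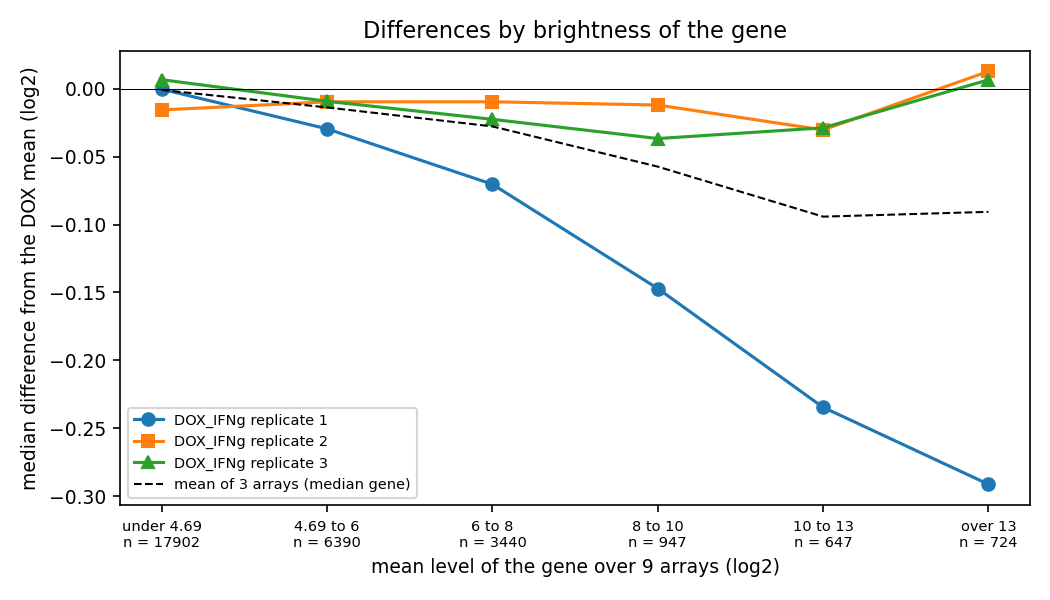
Median over genes of the difference from the DOX mean, in log2 units (y axis), by the mean level of the gene over 9 arrays (x axis, with the number of genes), for each DOX_IFNg array and, dashed, for the mean of the 3. The line of replicate 1 runs from near 0 in the dimmest genes to -0.29 in the brightest, while replicates 2 and 3 stay between -0.04 and 0.02.

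Muscle genes showed no called change either. Of 28 sarcomere and cardiac genes 1 reached an unadjusted p under 0.05, Tnnc1, the slow troponin C, lower by 0.21 without overlap (adjusted p = 0.976, limma), and Tnnt2 differed by -0.18. Among the skeletal muscle markers Myod1 lay at 7.01, 6.89 and 6.45 in DOX and 6.10, 6.27 and 6.61 in DOX_IFNg, with overlapping groups and a difference of -0.45 (SE 0.17; adjusted p = 0.976, limma), and Myog, called lower in DOX than in Con, lay at 4.50, 4.90 and 4.87 and at 4.75, 4.44 and 4.64. All 7 smooth muscle markers had a difference below 0, from -0.16 for Tagln, an actin-binding protein, to -0.04 for Myh11. Their median was -0.099, and 0 reached an unadjusted p under 0.05. Over all genes, 16279 of 30050 lay below 0, and over genes above the brightness limit 7251 of 12148. Of 11 fibroblast markers, Pdgfrb, a platelet-derived growth factor receptor, lay lower by 0.12 without overlap (adjusted p = 0.976, limma). Of the 14 immune markers, Cd14, a monocyte and macrophage receptor, lay lower by 0.20 and the other 13 reached no unadjusted p under 0.05.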

How the data were processed

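RNA of each sample was measured on 1 Affymetrix mouse array, 9 arrays in 3 groups. The authors deposited a table of log2 expression values per transcript cluster, made with RMA per the submitters' processing notes; the version, settings and build are not given in the sources used here, and the log2 scale is an inference from their range. No further normalization was applied. RMA compresses differences of dim probes. Of 65527 clusters, 30376 had a single symbol in the platform annotation, 2117 had several and 33034 were not listed. These 30376 gave 30050 genes, with the brightest cluster standing for each of 245 genes that had more than 1. A gene without such a cluster was not analysed here.

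Group means were fitted to all 9 arrays with limma 3.58.1 in R 4.3.3 (lmFit and eBayes, two-sided, Benjamini-Hochberg over 30050 genes). The procedure was tested on simulated data. The fit had 6 residual and 2.41 prior degrees of freedom. With 3 arrays per group, their number limits the precision. The members and lists were chosen with earlier results of these data known, and the NF-kB, ribosomal and respiratory lists after values were seen. Named genes are the measured members of the receptor, inhibitor, regulatory factor, GTPase, class I, class II, chemokine and enzyme lists, members of other lists at an unadjusted p under 0.05 with a fixed set given regardless, cell type markers, and the 10 genes with the lowest p in each direction among protein-coding genes above the brightness limit whose groups did not overlap, without predicted, small RNA and receptor symbols. Olfr1208, Ifitm2, Ifitm3, Ddit4 and the NF-kB genes outside this rule were named after their values were seen. Promoters came from the RefSeq table of GRCm38.p6. Replicate numbers of DOX and DOX_IFNg were not taken as pairs. The 20 alternative settings covered normalization, filters, blocks, weights, the variance prior, the genes tested and leaving out each array.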

Additional observations from a re-analysis of the deposited data

How the results depend on the processing

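DOX_IFNg minus DOX gave 0 called genes in 19 of 20 alternative settings, 1 of them (cyclic loess) added after the data were seen. Leaving out single arrays gave 0 to 1 calls. Without Con replicate 3, Olfr1208, an olfactory receptor gene, was called lower (-0.72, SE 0.045, adjusted p = 0.0156, limma). It lay at 4.72, 4.68 and 4.69 in DOX, 3.99, 4.02 and 3.94 in DOX_IFNg and 4.45, 4.40 and 4.72 in Con. Over the alternatives, 200 to 1348 genes lay higher and 485 to 1606 lower at an unadjusted p under 0.05, and the lowest adjusted p ranged from 0.0156 to 0.9999. The split of 597 higher to 906 lower became 726 to 815 under quantile and 740 to 778 under cyclic loess normalization. The calls of DOX minus Con ranged from 3329 to 4568 when single arrays were left out and from 3675 to 6152 otherwise, and those of DOX_IFNg minus Con from 3770 to 4974 and from 4387 to 6299. Same-numbered DOX and DOX_IFNg arrays had deviation correlations of -0.085, 0.11 and -0.16, so the numbers were not taken as pairs. Those of same-numbered Con and DOX_IFNg arrays were 0.36, -0.078 and 0.33, and of Con and DOX arrays -0.022, -0.060 and -0.11. Whether arrays of the same number shared a batch was not tested. With a replicate block the calls were 0 in DOX_IFNg minus DOX, 4472 in DOX minus Con and 4988 in DOX_IFNg minus Con. Of 1003 recomputed differences of 51 genes named in the results, 0 passed the test. Medians of the lists moved by more than the spread between arrays in 33 of 478 recomputations. Most interferon genes lay below the brightness limit, where signal over background limits what a difference can show.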
